A study of Mus musculus with 15 samples.

Results

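The binding sites of 2 subunits of Polycomb repressive complex 1 (PRC1), Ring1b and RYBP, were set against each other in mouse early cardiac mesoderm precursors (MES). The members were all peaks of the 2 deposited ChIP-seq peak lists on chromosomes 1 to 19, without the very start of chromosome 9. They numbered 15914 of the 30692 peaks in the 5 deposited lists of the series, 8422 of them Ring1b peaks and 7492 RYBP peaks. A Ring1b peak was called with RYBP, and an RYBP peak with Ring1b, when at least 1 bp was common to it and any peak of the other subunit.

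PRC1 keeps developmental genes silent in cells that do not use them. Ring1b is its main catalytic subunit, an E3 ligase that puts a single ubiquitin on histone H2A, and it is found in all forms of the complex. RYBP binds Ring1b on the same surface as the chromodomain (CBX) proteins do, so that a given complex holds either RYBP or its relative YAF2 (variant PRC1) or a CBX protein (canonical PRC1). Mel18, also named Pcgf2, is a core subunit found mainly in canonical PRC1, and Cbx2 is a chromodomain subunit of that form.

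Both libraries came from MES made from E14Tg2A embryonic stem cells (ESCs), a mouse line in wide use, with BMP4 at typically 0.1 to 0.3 ng/ml. Ring1b chromatin was precipitated with a home-made antibody and RYBP chromatin with a commercial one, at 5 ug of antibody each per the labels. No agent or allele other than those of the differentiation was named for them. The study held 15 samples, 6 ChIP-seq and 9 RNA-seq, and the lists of MES Mel18, MES Cbx2 and ESC Mel18 were used here as further readouts. The IgG library and the RNA-seq samples were not analysed here, so the MES identity of the cells was not checked against marker genes. Each side of the comparison was 1 library of unknown depth, without a replicate check. No test between conditions was possible, and the intervals below are 95% intervals that cover counting only. They treat peaks as independent, although 1 stretch can be split into several peaks, so they can be too narrow. No sequence is shown, since the peaks are placed on the mm9 build and no sequence of that build was used here.

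Ring1b and RYBP shared most of their sites, and RYBP peaks were the more often shared. A Ring1b peak overlapped RYBP in 5495 of 8422 cases (65.2%, exact Clopper-Pearson interval 64.2 to 66.3), which left 2927 without RYBP. An RYBP peak overlapped Ring1b in 5701 of 7492 cases (76.1%, interval 75.1 to 77.1), which left 1791 without Ring1b. The longer Ring1b list favours the RYBP share, and cutting Ring1b to its 7492 highest-scoring peaks narrowed the gap to 69.3% for Ring1b and 73.1% for RYBP. The RYBP share was above the Ring1b share on all 19 chromosomes, by 1.26 to 15.3 percentage points. Ring1b shares ran from 60.7% on chromosome 17 to 69.1% on chromosome 19, and RYBP shares from 68.9% on chromosome 16 to 80.7% on chromosome 8.

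In bases, the overlap was 9.19 Mb, which was 61.1% of the 15.05 Mb under Ring1b peaks and 71.1% of the 12.9 Mb under RYBP peaks. Joined into common regions, the 2 lists gave 9828 regions. Of these, 5110 (52.0%) had both subunits, 2927 (29.8%) had Ring1b only and 1791 (18.2%) had RYBP only. For scale, 42.3% of Ring1b peaks overlapped MES Mel18, 40.6% MES Cbx2 and 43.2% ESC Mel18. Of RYBP peaks, 45.8% overlapped MES Mel18, 45.8% MES Cbx2 and 50.7% ESC Mel18. These 3 lists are shorter than the Ring1b and RYBP lists, and a shorter list gives a smaller share.

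Few peaks lay near the limit of the overlap rule. A largest overlap under 100 bp was found for 23 shared Ring1b peaks and 11 shared RYBP peaks, with minima of 3 bp and 23 bp. A gap of up to 100 bp to the other list was found for 35 unshared Ring1b peaks and 16 unshared RYBP peaks. The median of the largest overlap was 1206 bp for shared Ring1b peaks and 1266 bp for shared RYBP peaks.

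Sharing was higher in each successive quartile of the authors' score, a value per peak of unstated scale that was used only to order the peaks within 1 list. Among Ring1b peaks, RYBP was found at 36.2% (interval 34.1 to 38.3) of the lowest score quartile, and this share was 56.3% in quartile 2, 75.8% in quartile 3 and 92.7% (91.5 to 93.8) in the highest. Among RYBP peaks, Ring1b was found at 51.1% (48.9 to 53.4) of the lowest quartile, 71.0% of quartile 2, 86.0% of quartile 3 and 96.2% (95.2 to 97.0) of the highest. The intervals of neighbouring quartiles did not overlap in either list. The rise held at a finer scale, from 31.9% in the lowest decile of the Ring1b list to 97.5% in the highest, and from 45.5% to 97.3% in the RYBP list. Ring1b scores piled up at 3100, and each of the 294 Ring1b peaks at or above that value overlapped RYBP (100%, interval 98.8 to 100). No RYBP peak reached it.

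**Figure D1:**
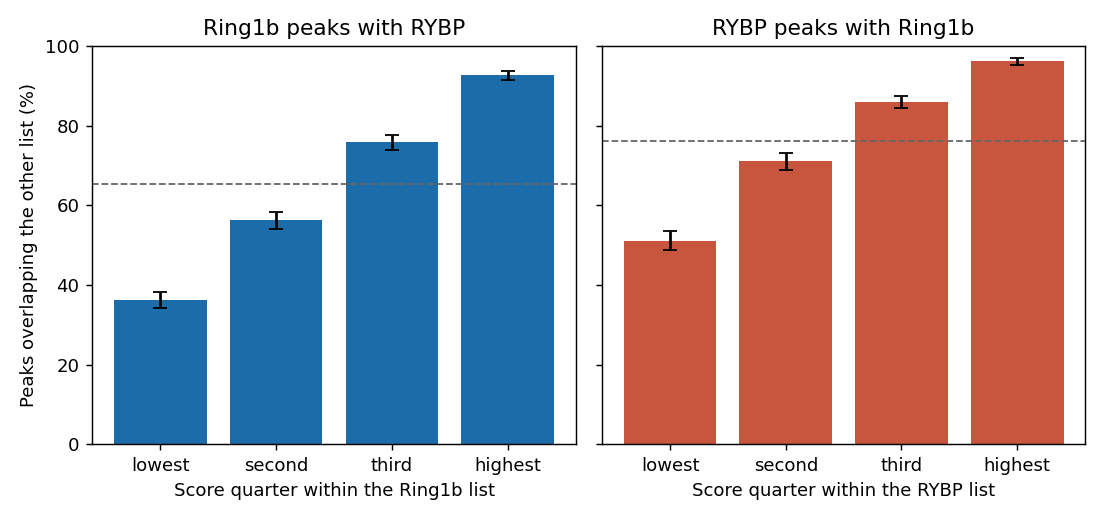
Share of peaks that overlapped the other list (y axis, %) in each score quartile (x axis), for Ring1b peaks on the left and RYBP peaks on the right. Bars carry exact 95% intervals and the dashed lines are the shares of the whole lists, 65.2% and 76.1%. The bars rise from 36.2 to 92.7% for Ring1b and from 51.1 to 96.2% for RYBP.

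Peaks without the other subunit were mostly low in score. The lower 2 score quartiles held 2264 of the 2927 Ring1b peaks without RYBP (77.3%) and 1458 of the 1791 RYBP peaks without Ring1b (81.4%). The highest quartile held 153 of them in the Ring1b list (5.23%) and 71 in the RYBP list (3.96%). Median width was 1430 bp for Ring1b peaks with RYBP, against 888 bp for those without. It was 1621 bp for RYBP peaks with Ring1b, against 1145 bp for those without.

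Within score quartiles, width still differed among Ring1b peaks, most of all in the highest quartile, and less so among RYBP peaks. In the highest Ring1b quartile, peaks with RYBP had a median width of 2642 bp (interval 2572 to 2731), against 1522 bp (1292 to 1662) for those without. In the lowest Ring1b quartile the medians were 882 bp with RYBP and 728 bp without. In the highest RYBP quartile, peaks with Ring1b had a median of 2322 bp (2268 to 2375) and those without 2093 bp (1760 to 2476), and these intervals overlapped. They overlapped also in RYBP quartile 2, with medians of 1290 bp (1260 to 1322) with Ring1b and 1255 bp (1202 to 1287) without. In the lowest RYBP quartile the medians were 1072 bp and 931 bp, and in quartile 3 1657 bp and 1502 bp, with intervals that did not overlap. Scores still differed within a quartile, since the median in the highest Ring1b quartile was 603 with RYBP and 351 without. The part of this in the width difference was not tested.

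Where 1 Ring1b peak met 1 RYBP peak, the 2 were of nearly equal width, and which was the wider varied with the Ring1b score. There were 4454 such one-to-one pairs, with a median width of 1430 bp for Ring1b and 1557 bp for RYBP. The Ring1b width was a median of 0.979 times the RYBP width (exact order-statistic interval 0.964 to 0.992), and the middle 50% of pairs lay between 0.770 and 1.22. Ring1b was the wider in 2112 pairs (47.4%). The ratio was above 1 among the better-scoring 50% of both lists, at 1.04 (interval 1.02 to 1.06). For covered lengths in common regions, which is another measure, it was 1.01, with an interval of 0.995 to 1.02 that includes 1. Neither subunit can thus be called the wider one over all sites. Peak centres lay a median of 161 bp apart.

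By Ring1b quartile, the median ratio was 0.750 in the lowest, 0.843 in quartile 2, 0.965 in quartile 3 and 1.18 in the highest, where its interval was 1.16 to 1.20. Ring1b was the wider peak in 18.9% of pairs of the lowest quartile and in 73.2% of the highest. Ring1b score and width go together, with median widths of 788, 985, 1309 and 2558 bp from the lowest to the highest quartile, so a rise of this ratio with Ring1b score is partly built in. Ordered by RYBP score instead, the ratio was 1.02, 0.951, 0.919 and 1.03 from the lowest to the highest quartile. RYBP width also goes with RYBP score, with medians of 1008, 1279, 1639 and 2312 bp, so a fall of the ratio is partly built into that order. In pairs where both peaks were in the same quartile, it was 0.880, 0.863 and 0.919 in the lower 3 quartiles and 1.13 (interval 1.10 to 1.15) in the highest. At sites of the highest quartile in both lists, Ring1b was the wider peak in 587 of 854 pairs (68.7%). This order is partly built in too. By the medians above, Ring1b peaks were the narrower in each of the lower 3 quartiles of the whole lists and the wider in the highest.

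**Figure D2:**
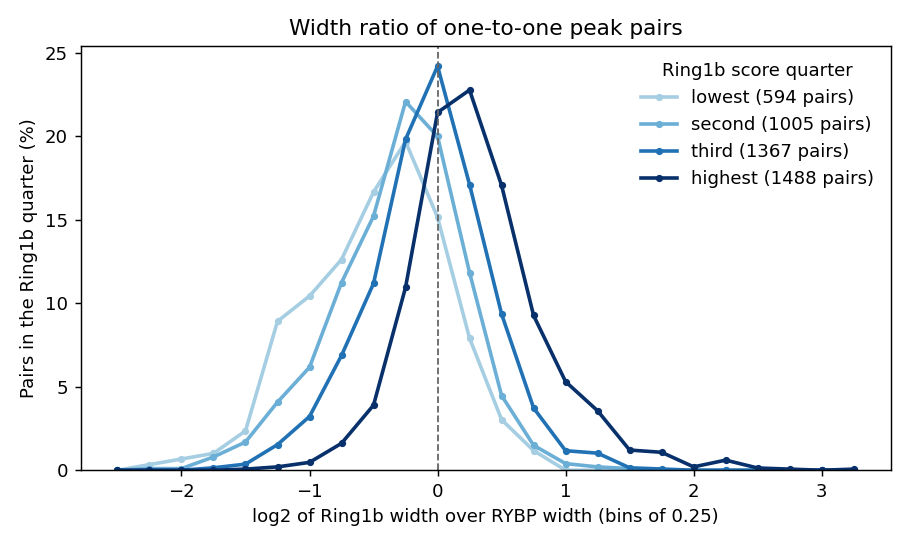
Distribution of the width ratio in 4454 one-to-one pairs, as log2 of Ring1b over RYBP width in bins of 0.25 (x axis) and the share of pairs in each Ring1b score quartile (y axis, %), with 1 line per quartile. The dashed line marks equal width. The lines move from left to right with Ring1b score, with median ratios of 0.750, 0.843, 0.965 and 1.18.

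The way peaks lay in each other changed in the same manner. Over all pairs, the RYBP peak lay inside the Ring1b peak in 1180 (26.5%), the Ring1b peak inside the RYBP peak in 1176 (26.4%), and the 2 were staggered in 2098 (47.1%). In the highest Ring1b quartile the RYBP peak was the inner one in 49.7% and the Ring1b peak in 11.3%. In the lowest Ring1b quartile the RYBP peak was the inner one in 6.06% and the Ring1b peak in 42.8%.

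Scores went together in the pairs, though loosely. Both peaks fell in the same quartile of their lists in 1958 of 4454 pairs (44.0%), 1 quartile apart in 1837 (41.2%) and further apart in 659 (14.8%). Of the 1488 pairs with a Ring1b peak of the highest quartile, 854 (57.4%) had an RYBP peak of the highest quartile and 74 (4.97%) one of the lowest. Of the 1221 pairs with an RYBP peak of the highest quartile, 69.9% had a Ring1b peak of the highest quartile and 1.97% one of the lowest.

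The cover of common regions by each subunit was described by region length. In regions under 2 kb that held both subunits, Ring1b covered a median of 86.1% and RYBP 94.0% of the length. In regions of 10 kb or more, Ring1b covered a median of 100% and RYBP 63.5%, and the median ratio of covered length was 1.57 (interval 1.51 to 1.69, 147 regions). Between these, the ratio was 1.08 in regions of 2 to 5 kb and 1.44 in regions of 5 to 10 kb. A Ring1b peak of 10 kb or more occurred 145 times, an RYBP peak of that width 11 times. Since the regions join both lists and are sorted by their own length, the list with the wide peaks fills the long classes. The near-complete Ring1b cover there and the rise of the ratio with length are thus largely built in, and are given as a description.

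**Figure D3:**
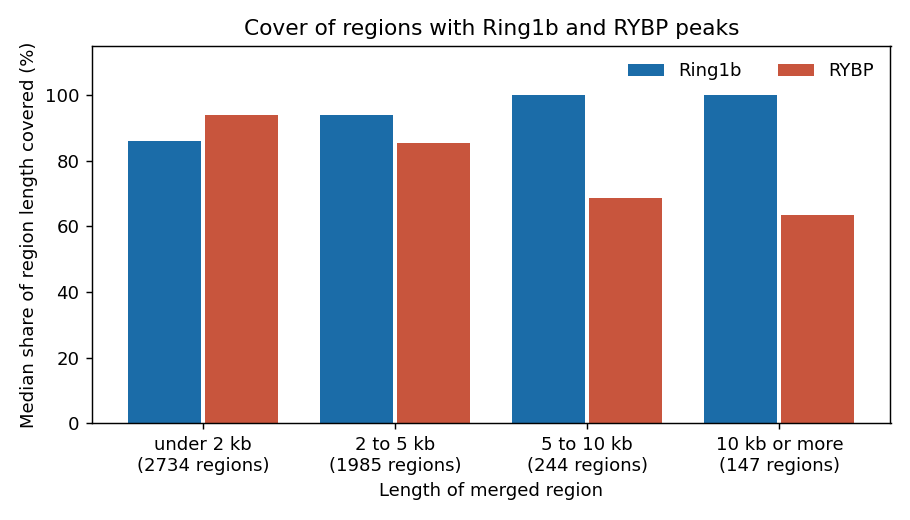
Median share of the length of common regions covered by Ring1b and by RYBP peaks (y axis, %), by length of the region (x axis, with the number of regions), in regions with both subunits. Ring1b goes from 86.1% in the shortest to 100% in the longest class, and RYBP from 94.0% to 63.5%, a pattern largely set by which list holds the wide peaks.

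Some wide Ring1b peaks met several RYBP peaks. Of the shared Ring1b peaks, 127 overlapped 3 or more RYBP peaks, with a median width of 14624 bp, and 28 overlapped 5 or more. Of the shared RYBP peaks, 9 overlapped 3 or more Ring1b peaks and 0 overlapped 5 or more. The widest Ring1b peaks spanned 71758 bp on chr6:52133651-52205408, 62981 bp on chr2:74491709-74554689 and 34330 bp on chr2:74558736-74593065, and they overlapped 14, 15 and 7 RYBP peaks in that order. The widest RYBP peaks were shorter, with 14806 bp on chr2:33484326-33499131, 13276 bp on chr11:85642493-85655768 and 13120 bp on chr4:109647019-109660138, and all 3 overlapped Ring1b.

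Among pairs with both peaks in the highest quartile, the 5 with the largest width ratio had Ring1b peaks of 4756 to 13357 bp and RYBP peaks of 1450 to 4022 bp. They lay on chromosome 11 (Ring1b chr11:98178955-98192311, ratio 3.32), chromosome 1 (chr1:78206295-78216120, ratio 3.30), chromosome 18 (chr18:77800372-77805127, ratio 3.28, and chr18:66093650-66099979, ratio 3.14) and chromosome 3 (chr3:34557270-34567487, ratio 2.80). All 5 also overlapped MES Mel18 and Cbx2, as did 83.2% of all Ring1b peaks of the highest quartile with RYBP. The 5 with the smallest ratio lay on chromosome 9 (Ring1b chr9:59426124-59426849, ratio 0.342), chromosome 13 (chr13:107812529-107813377, ratio 0.387), chromosome 11 (chr11:120459574-120460624, ratio 0.458), chromosome 4 (chr4:147932486-147933205, ratio 0.498) and chromosome 10 (chr10:74523548-74525031, ratio 0.505). Of these, only the one on chromosome 10 overlapped MES Mel18, and those on chromosomes 9 and 10 overlapped Cbx2. Their Ring1b peaks were narrow, at 720 to 1484 bp. With 5 pairs per side, a link of the ratio to Mel18 or Cbx2 was not tested.

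The highest-scoring shared sites carried the other subunits as well. Of the deposited Ring1b peaks, 284 had a score of exactly 3100. The Ring1b peaks named next scored above this pile and need not be the strongest sites. The Ring1b peaks with RYBP that scored highest lay on chr11:84332074-84343888, chr2:170319533-170324099, chr4:88937988-88942842, chr1:122236228-122240843 and chr6:53767325-53772270. All 5 overlapped MES Mel18, MES Cbx2 and ESC Mel18. The RYBP peaks with Ring1b that scored highest lay on chromosome 17 (chr17:39979841-39984015 and chr17:80771874-80774096), chr4:139383619-139390643, chr2:146046153-146050056 and chr5:140018905-140030312. They too overlapped MES Mel18 and ESC Mel18, and all but the peak on chromosome 17 from 80771874 overlapped Cbx2. The score of the first of them, 2765, stood apart from the next, 1963. Apart from the start of chromosome 9, no region was left out here for repeats or artefact signal. Whether this peak, or any other named site, is such a region was not tested.

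Shared sites were richer in Mel18 and Cbx2 than unshared ones, and the contrast for Mel18 was larger among RYBP peaks. MES Mel18 lay at 53.4% of Ring1b peaks with RYBP (interval 52.1 to 54.8), against 21.4% (19.9 to 22.9) of those without. It lay at 57.8% of RYBP peaks with Ring1b (56.5 to 59.1), against 7.71% (6.51 to 9.04) of those without. Cbx2 lay at 52.2% of Ring1b peaks with RYBP and 18.8% of those without, and at 55.4% of RYBP peaks with Ring1b and 14.9% of those without. ESC Mel18 lay at 56.6% of Ring1b peaks with RYBP and 17.9% of those without, and at 60.7% of RYBP peaks with Ring1b and 18.9% of those without.

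Within each score quartile the contrast for MES Mel18 was smaller among Ring1b peaks than among RYBP peaks. In the lowest Ring1b quartile, MES Mel18 was at 19.8% of peaks with RYBP and 11.7% of those without, and in the second quartile at 26.0% and 23.5%, where the intervals overlapped. In the highest Ring1b quartile it was at 87.5% with RYBP and 51.6% (interval 43.4 to 59.8) without. In the lowest RYBP quartile, MES Mel18 was at 38.7% of peaks with Ring1b and 4.59% of those without. In the highest RYBP quartile it was at 76.8% (74.8 to 78.7) with Ring1b and 12.7% (5.96 to 22.7) without. In the highest quartile this order did not hold for the other lists. In the highest Ring1b quartile, Cbx2 was at 84.6% of peaks with RYBP and 52.9% of those without, and ESC Mel18 at 84.2% and 37.9%. In the highest RYBP quartile, Cbx2 was at 75.9% of peaks with Ring1b and 49.3% of those without, and ESC Mel18 at 77.4% and 56.3%. Of the 71 peaks without Ring1b there, 22 lay in 2 long domains described below. With these domains left out, ESC Mel18 was at 77.3% with Ring1b and 36.7% (interval 23.4 to 51.7) without. MES Mel18 was then at 76.8% and 18.4%, and Cbx2 at 75.8% and 49.0%.

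**Figure D4:**
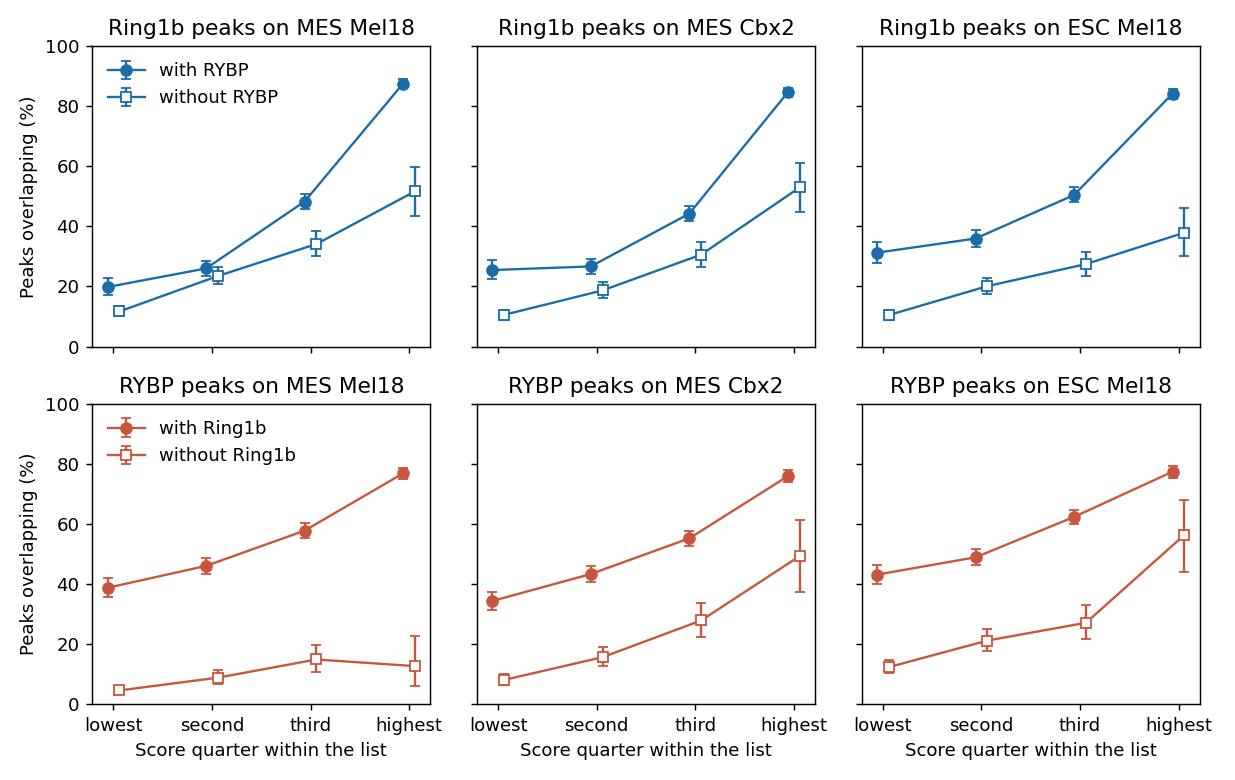
Share of Ring1b peaks (upper row) and RYBP peaks (lower row) that overlapped MES Mel18, MES Cbx2 and ESC Mel18 (y axis, %), by score quartile within the list (x axis), with exact 95% intervals. Filled circles are peaks with the other subunit and open squares those without. RYBP peaks without Ring1b stay between 4.59 and 14.9% on MES Mel18, whereas on Cbx2 they reach 49.3% in the highest quartile.

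High-scoring Ring1b peaks mostly had both Mel18 and Cbx2 or neither, and those without RYBP more often had neither than those with RYBP. Of the 1952 with RYBP in the highest quartile, 83.2% overlapped both, 4.25% Mel18 alone, 1.33% Cbx2 alone and 11.2% neither. Of the 153 without RYBP in that quartile, 79 (51.6%) overlapped both Mel18 and Cbx2, 0 Mel18 alone, 2 Cbx2 alone and 72 (47.1%) neither. Of these 72, 69 overlapped no peak of ESC Mel18 either. The 0 of 153 with Mel18 alone allows a share of up to 1.96%, taken as 3 counts and for counting error only, and the exact interval of that share reaches 2.38%. Whether the 153 had both or neither varied with the distance to the nearest RYBP peak. Of the 57 within 10 kb of one, 49 (86.0%) had both Mel18 and Cbx2, and 7 overlapped none of the other lists. Of the 96 further away, 30 (31.3%) had both, and 62 (64.6%) overlapped none of the other lists.

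High-scoring RYBP peaks without Ring1b had Cbx2 more often than Mel18. Of the 71 in the highest quartile, 31 (43.7%, interval 31.9 to 56.0) had Cbx2 without Mel18, 5 had Mel18 without Cbx2, 4 had both and 31 had neither. Of the 71, 22 (31.0%) lay in 2 long domains described below. Outside these domains, Cbx2 without Mel18 was found at 20 of 49 (40.8%), Mel18 without Cbx2 at 5 and both at 4. Of the 1802 RYBP peaks with Ring1b in the highest quartile, 4.50% had Cbx2 without Mel18, 5.44% Mel18 without Cbx2 and 71.4% both. Over all 1791 RYBP peaks without Ring1b, Cbx2 without Mel18 was found at 205 (11.4%), Mel18 without Cbx2 at 76 (4.24%) and both at 62 (3.46%). Over all 5701 RYBP peaks with Ring1b, the shares were 5.07%, 7.45% and 50.4% in that order. Of the 2927 Ring1b peaks without RYBP, 88 (3.01%) had Cbx2 without Mel18, 163 (5.57%) Mel18 without Cbx2 and 463 (15.8%) both. The header lines of the Ring1b and Mel18 lists of MES carry one prefix and those of the RYBP and Cbx2 lists another. What the prefix marks is not stated, and its part in these shares was not tested.

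Many unshared peaks stood alone among the 5 lists. None of the MES Mel18, MES Cbx2 and ESC Mel18 lists had a peak at 2012 of the Ring1b peaks without RYBP (68.7%) and at 1230 of the RYBP peaks without Ring1b (68.7%). The values were 29.9% for Ring1b peaks with RYBP and 27.5% for RYBP peaks with Ring1b. Unshared peaks were mostly low in score, and the contrast varied by quartile. In the lowest, it was 78.5% without and 50.7% with RYBP for Ring1b, and 79.5% without and 45.1% with Ring1b for RYBP. In the highest Ring1b quartile it was 45.1% and 8.66%. In the highest RYBP quartile it was 22.5% (interval 13.5 to 34.0) and 13.2% (11.6 to 14.8), and these intervals overlapped. Of the 71 peaks without Ring1b in that quartile, 22 lay in the 2 long domains, and all 22 overlapped ESC Mel18. Outside these domains, 16 of 49 (32.7%, interval 19.9 to 47.5) overlapped none of the other lists. That interval lay above the one of all peaks with Ring1b.

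Unshared Ring1b peaks lay nearer to RYBP than unshared RYBP peaks lay to Ring1b. The median gap was 43.7 kb for Ring1b peaks and 67.6 kb for RYBP peaks. A gap of up to 10 kb was found for 752 of 2927 Ring1b peaks without RYBP (25.7%, interval 24.1 to 27.3) and 255 of 1791 RYBP peaks without Ring1b (14.2%, 12.7 to 15.9). Ring1b peaks with such a gap often had MES Mel18 (50.4%) and Cbx2 (48.4%), against 11.4% and 8.60% of those further away. Among unshared RYBP peaks the values were 11.8% on Mel18 and 22.4% on Cbx2 within 10 kb, against 7.03% and 13.7% further away.

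RYBP peaks with a neighbour of their own list within 10 kb overlapped Ring1b more often than lone ones, 86.1% (interval 84.5 to 87.6) against 72.5% (71.3 to 73.7). In the lowest RYBP quartile the shares were 71.0% and 45.1%, and in the highest 96.0% and 96.3%. For Ring1b peaks, RYBP was at 68.5% of those with a neighbour and 63.7% of lone ones, whose median scores were 128 and 105. Within quartiles this direction was seen in the lowest (42.4% and 33.7%) and not in the others, at 54.6% and 57.0% in quartile 2, 74.1% and 76.5% in quartile 3, and 92.2% and 93.1% in the highest.

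Of the Ring1b peaks without RYBP, the 5 of highest score were found on chromosome 9 (chr9:89776111-89778723, chr9:40681205-40685159 and chr9:91303396-91305034), chr3:128913510-128922186 and chr10:61590679-61594477. All 5 overlapped MES Mel18, MES Cbx2 and ESC Mel18. Of all 153 Ring1b peaks without RYBP in the highest quartile, 51.6% overlapped MES Mel18, 52.9% Cbx2 and 37.9% ESC Mel18. RYBP was not far from 4 of the 5 named peaks. The peak on chromosome 10 lay 58 bp from an RYBP peak and the one from 40681205 lay 84 bp from one. Those from 91303396 and 128913510 lay 2559 and 4825 bp from one. The peak from 89776111 lay 23824 bp away. It belonged to a run of 5 Ring1b peaks without RYBP (chr9:89762884-89778723, 15.8 kb). The longest such run of Ring1b, on chromosome 3 (chr3:128913510-128930650, 17.1 kb), held 5 peaks and was covered by MES Mel18 over 100% and by Cbx2 over 93.8% of its length. The next longest lay on chromosome 9 (chr9:118384999-118398410 and chr9:91303396-91316039) and chr11:101114663-101127252, with 2 to 4 peaks each. A run here is a series of peaks of 1 list, each within 10 kb of the next, with no peak of the other list on or between them.

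The RYBP peaks without Ring1b that scored highest came from only 2 places, on chromosome 11 (chr11:96141936-96150459 and chr11:96159198-96169433) and chromosome 15 (chr15:102791723-102798667, chr15:102782418-102788231 and chr15:102763873-102771019). All 5 overlapped ESC Mel18 and none overlapped MES Mel18, and the 2 on chromosome 11 overlapped Cbx2. Of all 71 RYBP peaks without Ring1b in the highest quartile, 56.3% overlapped ESC Mel18, 12.7% MES Mel18 and 49.3% Cbx2. The nearest Ring1b peak was 55181 to 110365 bp away from the 5 named peaks. They belonged to the longest RYBP runs without Ring1b, of 131.8 kb with 25 peaks on chr15:102740213-102872032 and 104.7 kb with 27 peaks on chr11:96112105-96216769. The other named runs of RYBP were short, with 4 peaks over 14.6 kb on chr15:75716556-75731132 and 2 peaks each on chr2:30531935-30543236 and chr11:3025490-3036322. Of 1702 runs of RYBP, 1664 were single peaks, and of 2731 runs of Ring1b, 2568 were.

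When RYBP peaks within 10 kb were joined, 64 domains held 5 or more RYBP peaks, and Ring1b covered a median of 95.7% of their length. Cover was under 10% in 3 of them, on chromosome 15 (chr15:102740213-102872032, 0%), chromosome 11 (chr11:96112105-96228862, 3.40%) and again chromosome 15 (chr15:75716556-75742186, 8.28%). The domains with the next most RYBP peaks were unlike the first 2. On chr2:74493137-74602058, Ring1b covered 90.5% and RYBP 57.0%, and on chr6:52106626-52225119 Ring1b covered 99.2% and RYBP 70.5%. On chromosome 11 and chromosome 15, RYBP covered 68.7% and 53.1%, which is much like its cover on chromosomes 6 and 2. MES Mel18 went with Ring1b, at 91.9% and 99.1% on chromosomes 2 and 6, and at 11.8% and 0% on chromosomes 11 and 15. The Ring1b and MES Mel18 lists also share the header prefix described above, and its part in this was not tested. Cbx2 covered 94.3% on chromosome 2, 99.5% on chromosome 6, 96.4% on chromosome 11 and 0% on chromosome 15. ESC Mel18 covered 65.4 to 80.8% of all 4 domains.

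In the mm9 build these 4 stretches are those of the Hox clusters, which encode homeodomain factors that pattern the body axis and are classic Polycomb targets. HoxC lies on chromosome 15, HoxB on chromosome 11, HoxD on chromosome 2 and HoxA on chromosome 6. These names come from general knowledge of the genome, given after the values were seen. The RefSeq gene table at hand is of another build, GRCm38.p6, and places the Hox genes on the same 4 chromosomes. Read coverage was not analysed here under the missing Ring1b and Mel18 peaks of HoxB and HoxC, or under the missing Cbx2 peaks of HoxC. A lack of binding and a lack of called peaks there cannot be told apart.

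**Figure D5:**
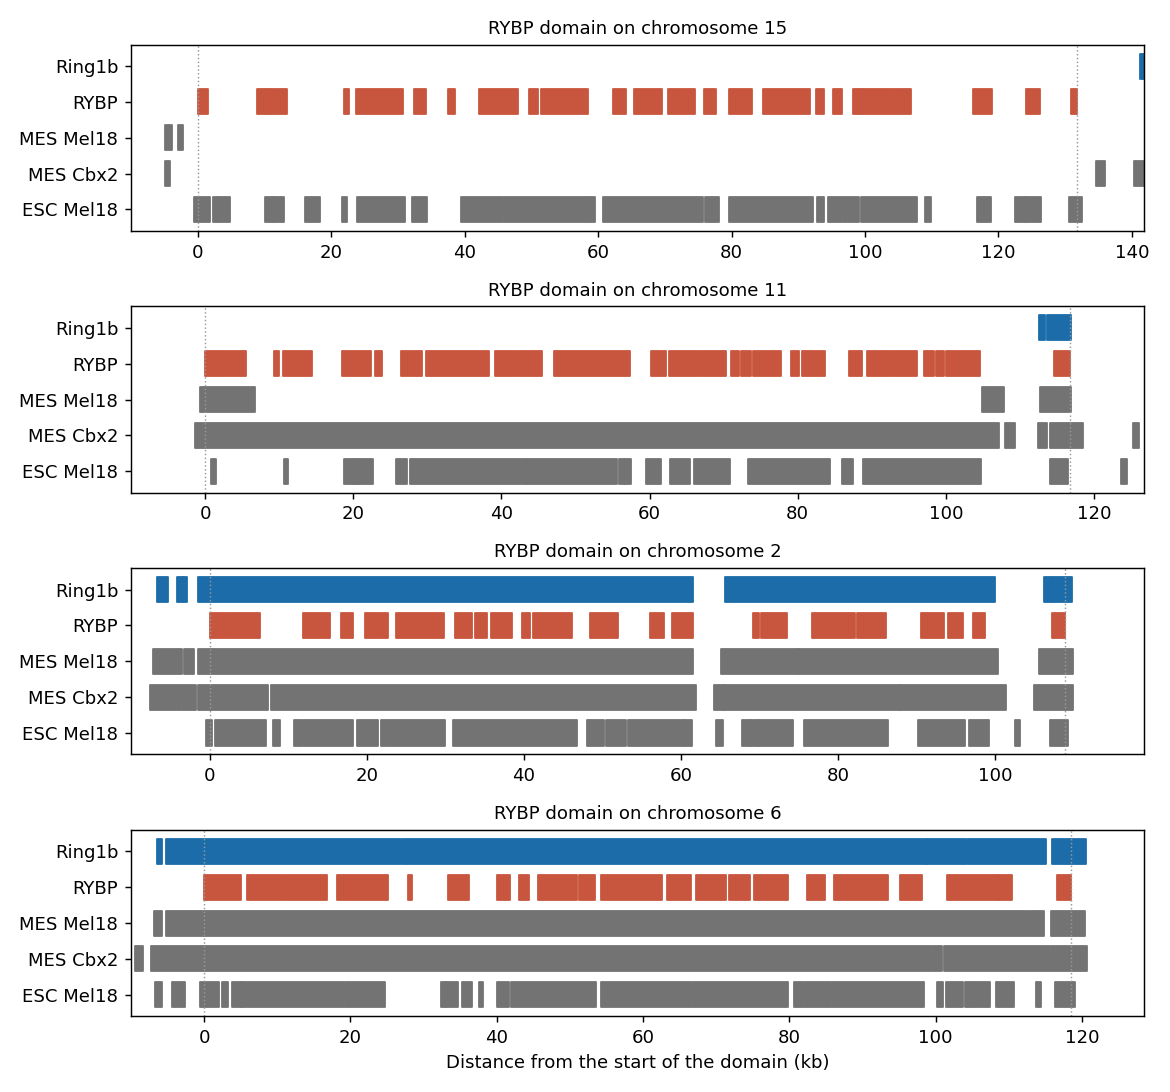
Peaks of Ring1b, RYBP and the 3 other lists (rows) along the 4 domains with the most RYBP peaks, as distance from the start of each domain (x axis, kb). Dotted lines mark the ends of each domain. RYBP is cut into 21 to 28 peaks in each, whereas Ring1b covers 90.5 and 99.2% of those on chromosomes 2 and 6, and 0 and 3.40% of those on chromosomes 15 and 11.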

How the data were processed

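Peak lists of ChIP-seq libraries were compared. Per the submitters' processing notes, the build was mm9 and the tools included Bowtie and TopHat, without versions. Peak names carry the tag of MACS, per the files. For its version, settings, control library and pooling, the entry is: not given in the sources used here. Scores are the authors' deposited values, of unstated scale, and were used only within a list. Other deposited columns are the chromosome, start and end. Starts are printed counted from 1. Depth is unknown, which affects peak number, width and score.

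The Ring1b list lost 219 of 8641 peaks and the RYBP list 122 of 7614, on chromosomes X, Y and M and at the start of chromosome 9. Score quartiles have near-equal size, with ties ordered by width. Shares have exact Clopper-Pearson intervals, medians exact order-statistic intervals, at 95%. There was 1 library per side and no test. Named sites are the 5 highest-scoring peaks of each class, the 3 widest of each list, the 5 pairs of highest and lowest width ratio and the 5 longest runs. Peaks, rules and lists were chosen with earlier results of these data known. Overlaps gave 0 differences from bedtools 2.31.1. On simulated data with 59.5% of 8422 peaks placed on RYBP peaks, 59.5% were called, which checks only the counting of overlaps. Software was matplotlib 3.10.9, scipy 1.17.1, pandas 2.3.3, numpy 2.4.6 and Python 3.11.15. Alternatives were other overlap rules, stricter or equal lists, joined peaks, all chromosomes, 2 domains left out, quartiles by width and covered lengths.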

Additional observations from a re-analysis of the deposited data

How the results depend on the processing

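No paired analysis was possible because each side had 1 library, and for the same reason no replicate could be left out. Of 54 recomputed values, 29 stayed within the interval of the value reported and 25 did not. The rise of sharing from the lowest to the highest quartile held in both lists under every alternative tried. With 50% of the shorter peak required, the share of Ring1b peaks with RYBP was 63.4%, that of RYBP peaks with Ring1b 74.99%, and that of the lowest Ring1b quartile 33.7%. With centres within 1 kb, the shares were 61.4% for Ring1b and 66.6% for RYBP, 82.4% in the highest Ring1b quartile, and 45.7% and 78.9% in the lowest and highest RYBP quartiles. With only the better-scoring 50% of peaks kept per list, the Ring1b share was 63.4%, the lowest and highest quartiles had 39.7% and 87.7% for Ring1b and 56.0% and 95.1% for RYBP, and the median width ratio was 1.04. Lists of equal length gave 69.3% for Ring1b and 73.1% for RYBP, with 43.6% and 46.1% in their lowest quartiles. With peaks within 1 kb joined, the Ring1b share was 66.3%, its highest quartile 94.2% and the width ratio 0.995. Without the 2 long domains on chromosomes 11 and 15, the highest RYBP quartile had 97.4%. These 2 domains were left out for their low Ring1b cover, of 3.40% and 0%. Of their 53 RYBP peaks, 52 were without Ring1b, 22 of them in the highest quartile. With quartiles by peak width, the lowest and highest RYBP quartiles had 55.9% and 92.7%. Covered lengths in common regions gave a ratio of 1.01. Rules that ask for more overlap, and lists that are shorter on the other side, lower a share by construction. Leaving out domains chosen for low Ring1b cover raises the RYBP share by construction. The causes of the other moves were not tested. Unknown depth limits every statement on a missing peak.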

Other observations

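Seen from the other lists, most MES Mel18 and Cbx2 sites held both Ring1b and RYBP. Of 4048 MES Mel18 peaks, 68.9% overlapped both, 12.5% Ring1b without RYBP, 4.30% RYBP without Ring1b and 14.4% neither. Of 3600 Cbx2 peaks, 69.6% overlapped both, 9.19% Ring1b without RYBP, 5.86% RYBP without Ring1b and 15.4% neither. Of 6394 ESC Mel18 peaks, 55.1% overlapped both in MES, 641 peaks Ring1b without RYBP, 7.34% RYBP without Ring1b and 27.6% neither. Where 1 of the pair was missing, it was more often RYBP in all 3 lists, by the narrowest margin at ESC Mel18 sites. The Ring1b list is the longer of the pair, and its part in this was not tested.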
